A study of Rattus norvegicus with 9 samples.

Results

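The transcripts described here are 9 protein-coding genes that neutrophils use to build their granules and their main cytosolic defence protein: Mpo, Elane, Prtn3, Ctsg, Camp, Ltf, Ngp, S100a8 and S100a9. They were found by gene name among the 35360 genes of the count table, where each name matched 1 row. Poly-A RNA of rat femurs, taken at the mid part of a fracture, was sequenced in 9 libraries, 3 in each of 3 groups. The groups were the gel alone (Gel, the control), the gel with a bisphosphonate (labelled ALN+Gel, called ALN gel here) and the gel with a magnesium and ALN framework material (labelled Mg-ALN@Gel, called Mg-ALN gel here). All 3 groups therefore carried the fracture and the gel. Strain, sex, age, dose and time after fracture are not in the labels used here, and the labels do not say whether the 3 libraries of a group came from separate animals.

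Neutrophils are made in bone marrow, and their granules are filled in the order in which the genes are transcribed. The azurophil (primary) granule proteins are transcribed early, in promyelocytes, and the specific (secondary) granule proteins later, in myelocytes and metamyelocytes. Both sets are largely shut off before the cell leaves the marrow. S100a8 and S100a9, the subunits of calprotectin, are transcribed in maturing and mature neutrophils and also in monocytes. In a bone sample, transcripts of the granule sets therefore mark precursor cells, and calprotectin transcripts mark later myeloid cells as well. In bulk RNA, fewer cells of a type and less RNA per cell cannot be told apart.

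The azurophil set held Mpo (myeloperoxidase, which makes hypochlorous acid) and the serine proteases Elane (neutrophil elastase), Prtn3 (proteinase 3) and Ctsg (cathepsin G). The specific set held Camp (cathelicidin antimicrobial peptide), Ltf (lactoferrin, which binds iron) and Ngp (neutrophilic granule protein, a cystatin relative). In the coordinates of the deposited table, whose genome build is not given in the sources used here, Elane (chr7:12638322-12640232) and Prtn3 (chr7:12643516-12646960) lay 3283 bases apart on the minus strand. Both sat inside the span listed for Arhgap45, a GTPase regulator, on the same strand (chr7:12541061-12741296), so their reads could be shared with it and their values are uncertain. S100a8 (chr2:190073815-190074354, plus strand) and S100a9 (chr2:190097554-190100276, minus strand) lay 23199 bases apart with 0 listed genes between them. Camp (chr8:117930546-117932518), Ngp (chr8:118662335-118665699) and Ltf (chr8:119290416-119313261) were on chromosome 8, Mpo (chr10:75087892-75098260) on chromosome 10 and Ctsg (chr15:35111091-35113678) on chromosome 15. No other listed gene overlapped these 7.

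The 250 bases before the gene start are shown for 4 members, because the azurophil, specific and calprotectin sets each have at least 1 of them and because the sets differed in how they varied across libraries. Sequences are from RefSeq (GRCr8, in whose coordinates they are given), where 7 of the 9 members matched by symbol, all but Elane and S100a8. Capitals mark matches to a C/EBP motif (TTNNGNAA), a PU.1 motif (GAGGAA) and a RUNX motif (TGTGGT) on either strand, and to a TATA box (TATAAA) on the gene's own strand.
Mpo (chr10:73092152-73092401, plus strand): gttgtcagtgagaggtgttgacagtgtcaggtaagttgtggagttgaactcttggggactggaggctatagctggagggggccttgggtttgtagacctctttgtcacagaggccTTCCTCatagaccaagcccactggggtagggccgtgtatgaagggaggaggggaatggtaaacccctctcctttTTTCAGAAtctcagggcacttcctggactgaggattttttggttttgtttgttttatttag
Prtn3 (chr7:10476197-10476446, minus strand): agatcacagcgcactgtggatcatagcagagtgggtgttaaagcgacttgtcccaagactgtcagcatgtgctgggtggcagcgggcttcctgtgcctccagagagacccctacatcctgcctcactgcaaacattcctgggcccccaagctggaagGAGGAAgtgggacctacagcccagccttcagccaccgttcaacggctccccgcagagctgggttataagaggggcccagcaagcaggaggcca
Ngp (chr8:119272355-119272604, plus strand): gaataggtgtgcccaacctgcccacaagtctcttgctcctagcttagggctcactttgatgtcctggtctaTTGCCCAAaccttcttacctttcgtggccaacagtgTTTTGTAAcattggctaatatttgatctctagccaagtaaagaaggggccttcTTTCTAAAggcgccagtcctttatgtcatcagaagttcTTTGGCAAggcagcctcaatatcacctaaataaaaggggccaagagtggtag
S100a9 (chr2:178490623-178490872, minus strand): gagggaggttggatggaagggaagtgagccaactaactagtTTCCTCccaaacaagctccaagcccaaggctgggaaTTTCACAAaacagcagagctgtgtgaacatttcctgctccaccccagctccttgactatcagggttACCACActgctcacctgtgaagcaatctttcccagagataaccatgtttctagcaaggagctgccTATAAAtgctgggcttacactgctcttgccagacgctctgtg

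The Ngp window held 4 matches to the C/EBP motif, starting 179, 143, 90 and 52 bases before the gene start. In the Mpo window there was 1 C/EBP match, at 61 bases, and 1 PU.1 match, at 135 bases, both on the opposite strand. The Prtn3 window held 1 PU.1 match, at 93 bases. The S100a9 window held all 4 motifs, and its TATA box began 42 bases before the start. Ctsg had a PU.1 and a RUNX match, and the Camp and Ltf windows held none of these letters. Over the members in the table, the C/EBP motif was found in 3 of 7, PU.1 in 4 of 7, RUNX in 2 of 7 and the TATA box in 1 of 7. Among all 33469 promoters of the same length the shares were 37.2%, 23.3%, 14.5% and 8.06%. These matches describe the letters only.

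The libraries held between 13388689 and 18763270 counts, and 15460 genes were tested, of which 8 were members. Bone matrix RNA was abundant everywhere (Col1a1, type I collagen, 10744 to 97352 CPM, counts scaled to a common library size). Other tissue varied widely: the summed level of the skeletal muscle markers (6 of 8 matched) ran from 6.22 CPM in Mg-ALN gel library 3 to 6424 CPM in Gel library 3, and the mitochondrial share of counts from 4.16% to 39.5%. Their part in the values below was not tested, except that the mitochondrial share was also fitted as a covariate. CPM values use library sizes scaled by TMM.

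Per transcript length, calprotectin RNA was far more abundant than the granule RNAs in each group. On the authors' FPKM scale, the Gel level was 638 ± 528 for S100a9 and 406 ± 317 for S100a8, against 10.04 ± 2.45 for Camp (SD, n = 3 libraries). The next levels in Gel were 4.65 ± 3.12 for Ngp, 3.66 ± 0.761 for Elane, 3.57 ± 3.44 for Ctsg, 2.66 ± 2.24 for Mpo and 2.13 ± 1.63 for Prtn3. In this order S100a9 and S100a8 overlapped across libraries, the lowest S100a8 value (91.0) was above the highest Camp value (12.3), and neighbours from Ngp to Prtn3 overlapped. In ALN gel the order was S100a9 (292 ± 203), S100a8 (270 ± 178), Camp (29.3 ± 19.8), Ngp (18.4 ± 13.3), Ctsg (16.7 ± 16.4), Elane (10.2 ± 6.38), Mpo (9.61 ± 7.45) and Prtn3 (7.65 ± 4.91). In Mg-ALN gel it was S100a8 (3761 ± 4679), S100a9 (3702 ± 4295), Camp (98.5 ± 84.5), Ngp (15.1 ± 13.4), Mpo (12.6 ± 13.8), Elane (8.40 ± 7.09), Prtn3 (8.05 ± 7.01) and Ctsg (7.31 ± 7.16). Camp headed the granule genes in every group mean, and the order of Mpo, Elane, Prtn3 and Ctsg among themselves changed from group to group within wide spreads. Ltf had 2 counts in Gel library 3 and 0 in the other 8 libraries. A count of 0 allows up to 3 counts, or 0.169 to 0.236 CPM depending on the library, for counting error only, so Ltf was at the limit of detection throughout.

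**Figure D1:**
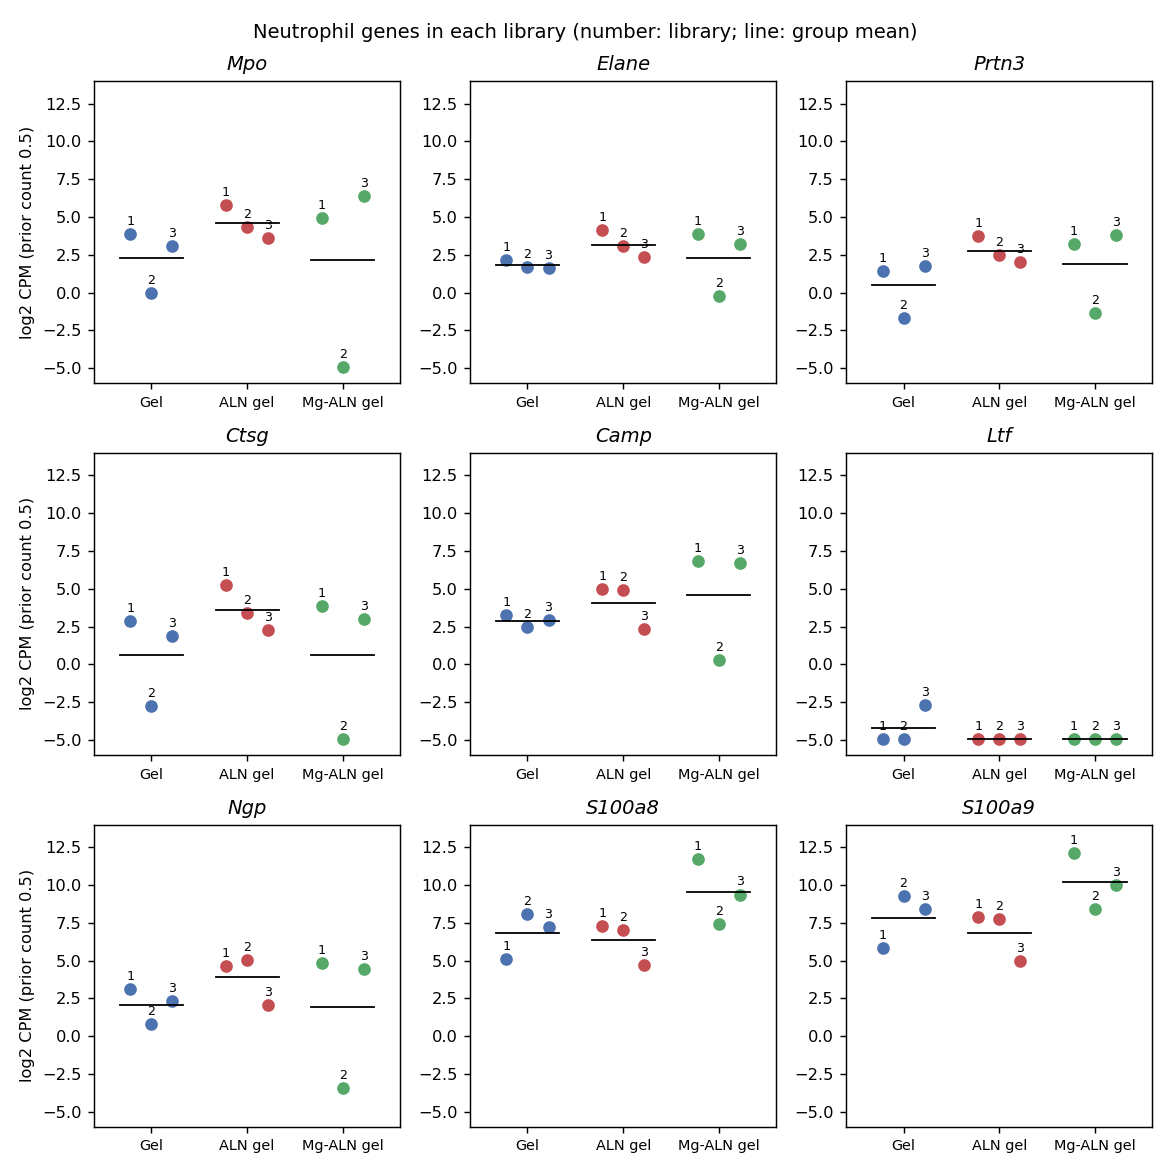
Level of each of the 9 genes in each library, as log2 CPM with a prior count of 0.5; numbers are library numbers and lines are group means over 3 libraries. Mg-ALN gel library 2 lies lowest for Mpo, Elane, Ctsg, Camp and Ngp, while S100a8 and S100a9 are highest in Mg-ALN gel library 1.

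Among the azurophil genes, Mpo measured 14.4, 0.958 and 8.39 CPM in Gel libraries 1 to 3. It measured 55.9, 20.2 and 12.3 CPM in ALN gel and 30.6, 0 and 82.9 CPM in Mg-ALN gel. The single highest and the single lowest library of this peroxidase transcript were thus both in the Mg-ALN gel group. Ctsg measured 7.18, 0.113 and 3.63 CPM in Gel, 37.3, 10.3 and 4.86 CPM in ALN gel, and 14.3, 0 and 7.87 CPM in Mg-ALN gel. Cathepsin G RNA was therefore also at 0 in Mg-ALN gel library 2, and its Gel library 2 value rested on 2 counts. The ALN gel and Gel libraries of both genes overlapped.

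Prtn3 measured 2.63, 0.282 and 3.32 CPM in Gel, 13.5, 5.58 and 4.07 CPM in ALN gel, and 9.37, 0.357 and 14.02 CPM in Mg-ALN gel. Elane measured 4.48, 3.21 and 3.01 CPM in Gel, 17.6, 8.27 and 4.98 CPM in ALN gel, and 14.3, 0.833 and 9.39 CPM in Mg-ALN gel. For these neighbouring protease genes all 3 ALN gel libraries were above all 3 Gel libraries, whereas the Mg-ALN gel libraries spanned both groups. Elane was the steadiest member in Gel, where its FPKM was 11.4 times that of Prtn3 in library 2 (57 against 5 counts) and 1.71 and 0.908 times in libraries 1 and 3. Arhgap45, whose listed span covers both genes, measured 78.5, 166 and 132 CPM in the Gel libraries, 107, 147 and 79.6 CPM in ALN gel, and 125, 106 and 149 CPM in Mg-ALN gel. It was thus highest in Gel library 2, where Elane exceeded Prtn3 most, and whether shared reads entered the Elane count was not tested.

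Mpo and Ctsg kept a similar proportion in most libraries. The FPKM of Mpo was 0.512 to 0.862 times that of Ctsg in 6 libraries, and 2.90 times in Gel library 2, on 17 against 2 counts. In Mg-ALN gel library 3 it was 3.60 times, on 1307 against 124 counts, so that library held more myeloperoxidase RNA per cathepsin G RNA than the 6. This difference in proportion within 1 group has no replicate.

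Of the specific granule genes, Camp measured 9.39, 5.52 and 7.64 CPM in Gel. It measured 32.0, 30.7 and 4.98 CPM in ALN gel and 116, 1.19 and 105 CPM in Mg-ALN gel. Cathelicidin RNA was thus highest in Mg-ALN gel libraries 1 and 3 and lowest in library 2 of the same group. Ngp measured 8.75, 1.69 and 5.07 CPM in Gel, 25.3, 32.97 and 4.13 CPM in ALN gel, and 28.4, 0.0595 and 21.6 CPM in Mg-ALN gel. Its low library in Mg-ALN gel held 1 count, and ALN gel library 3 lay below the Gel range for Camp and inside it for Ngp. The FPKM of Camp was 1.37 to 2.23 times that of Ngp in Gel libraries 1 and 3 and the ALN gel libraries, 4.83 times in Gel library 2, and 6.03 and 7.16 times in Mg-ALN gel libraries 1 and 3. Mg-ALN gel library 2 had 20 against 1 counts.

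S100a8 measured 35.1, 272 and 151 CPM in Gel, 158, 132 and 26.1 CPM in ALN gel, and 3418, 174 and 664 CPM in Mg-ALN gel. S100a9 measured 56.5, 609 and 341 CPM in Gel, 233, 213 and 31.5 CPM in ALN gel, and 4522, 339 and 1014 CPM in Mg-ALN gel. The 2 calprotectin subunits were higher in every Mg-ALN gel library than in any ALN gel library, but Mg-ALN gel library 2 lay inside the Gel range. Mg-ALN gel library 1 stood apart from the rest: calprotectin made up 0.733% of all its counts, against 0.00655% to 0.141% in the other libraries. The FPKM of S100a8 was 0.621 to 1.16 times that of S100a9, so the subunits kept close to a fixed proportion while the highest level was 131 times the lowest for S100a8 and 144 times for S100a9.

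The sets stood farthest apart in Mg-ALN gel library 2 and Gel library 2, where granule RNA was low and calprotectin RNA was not. Mg-ALN gel library 2 held 20 azurophil, 21 specific and 8616 calprotectin counts, and Gel library 2 held 81, 128 and 15623. As a share of azurophil plus calprotectin counts, the azurophil genes took 0.232% (95% Clopper-Pearson interval 0.142% to 0.357%) in Mg-ALN gel library 2 and 0.516% (0.410% to 0.641%) in Gel library 2. The share was 31.2% (28.8% to 33.8%) in ALN gel library 3, 24.1% in ALN gel library 1 and 23.9% in Gel library 1. It was 11.4% in ALN gel library 2, 6.37% in Mg-ALN gel library 3, 3.59% in Gel library 3 and 0.856% in Mg-ALN gel library 1. The ALN gel libraries (11.4% to 31.2%) were all above the Mg-ALN gel libraries (0.232% to 6.37%), and Gel spanned both. This share was not tested, and an exact permutation test of 3 against 3 libraries cannot go below p = 0.1. The intervals cover counting error only, and reads that share a molecule by amplification are not independent.

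**Figure D2:**
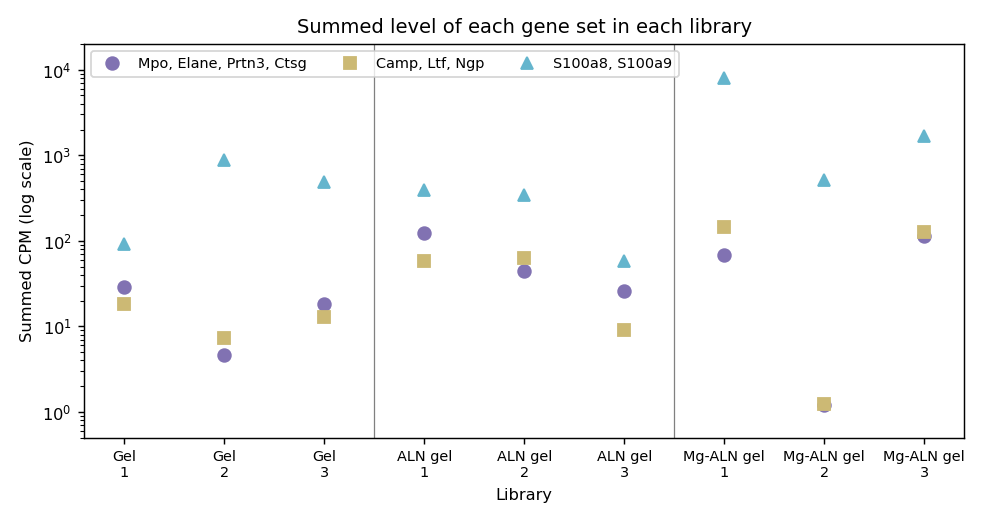
Summed CPM (log scale) of the azurophil genes (circles), the specific granule genes (squares) and the calprotectin subunits (triangles) in each of the 9 libraries. In Mg-ALN gel library 2 the granule sets lie at 1.19 and 1.25 CPM and calprotectin at 513 CPM.

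The comparison of ALN gel with Gel asks what the bisphosphonate in the gel did to these transcripts. The 6 granule genes had positive fitted differences and the calprotectin subunits negative ones. No member passed the test: edgeR's quasi-likelihood test called 0 of 8 members, and the background was 0% of all genes. The log2 fold change of Ctsg was 2.26 (SE 1.58, adjusted p = 0.761, edgeR), of Ngp 2.01 (SE 1.35, adjusted p = 0.747, edgeR), of Mpo 1.90 (SE 1.54, adjusted p = 0.798, edgeR) and of Camp 1.58 (SE 1.17, adjusted p = 0.775, edgeR). For the genes whose libraries did not overlap, Prtn3 had 1.89 (SE 1.16, adjusted p = 0.715, edgeR) and Elane 1.52 (SE 0.84, adjusted p = 0.686, edgeR). Between libraries of the same number, Mpo, Elane, Prtn3 and Ctsg were each higher in ALN gel in 3 of 3 pairs, as were 22.9% of all genes, and Camp and Ngp in 2 of 3. For Elane and Prtn3 this count adds nothing, since libraries without overlap give it under any pairing. With the number as a block, Mpo had 2.89, Prtn3 2.66 and Ctsg 3.35, and no member was called. Elane and Camp did not rise in this way. Over the alternatives that left out no single library, the block included, Elane reached at most 1.52 and Camp 1.68. Of the 8 members, the 2 without overlap stood beside 11.1% of all genes with every ALN gel library above every Gel library. S100a8 had −0.54 (SE 1.08) and S100a9 −1.08 (SE 1.10). The median over the 8 members was 1.74, against −0.0014 over all genes tested, and 6 of 8 were positive against 49.8% of all genes. The mitochondrial share of counts was highest in the same 2 libraries as the azurophil sum, 39.5% in ALN gel library 1 and 31.6% in Mg-ALN gel library 3, and was 5.40% in Gel library 2. The low ends did not match. Mg-ALN gel library 2, with the lowest azurophil sum (1.19 CPM), had a share of 10.6%. Gel library 3, with an azurophil sum of 18.35 CPM, had the lowest share, 4.16%. With this share as a covariate the members' median was 0.88, and the log2 fold change was 0.73 for Mpo, 0.86 for Elane, 1.01 for Prtn3, 1.09 for Ctsg, 0.91 for Camp and 1.48 for Ngp. At an unadjusted p under 0.05 there were 0 members and 1268 genes (8.20%). DESeq2 called 135 genes (1.04%) and limma-voom with quality weights 263 (1.70%), and neither called a member.

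Mg-ALN gel against ALN gel sets the magnesium material against the bisphosphonate given without it. S100a8 and S100a9 had the largest differences, while the granule genes other than Camp lay near or below 0. The log2 fold change was 3.75 for S100a8 (SE 1.20, unadjusted p = 0.0121, adjusted p = 0.496, edgeR) and 3.62 for S100a9 (SE 1.20, unadjusted p = 0.0146, adjusted p = 0.496, edgeR). By edgeR 0 of 8 members were called, with a background of 0%. Both calprotectin genes were in the 3.76% of genes higher at an unadjusted p under 0.05 (1421 genes, 9.19%, in either direction) and in the 6.76% whose Mg-ALN gel libraries were all higher. DESeq2 called both, with an adjusted p of 0.0189 for S100a8 and 0.0272 for S100a9, among 0.364% of genes called higher. limma-voom with quality weights called 0 members and 0.0129% of genes. Without Mg-ALN gel library 1, the library with the most calprotectin RNA, the log2 fold change was 1.99 for S100a8 and 2.09 for S100a9. Camp had 1.71 (SE 1.17), Mpo 0.36, Prtn3 0.039, Ngp −0.32, Elane −0.33 and Ctsg −1.24. The median of the 8 members was 0.20, against −0.044 over all genes, and 5 of 8 were positive against 46.4%.

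The comparison of Mg-ALN gel with Gel sets the material against the plain gel. All 8 fitted differences were positive (background 47.7%), and none was called by edgeR (background 0%). Camp had the largest, 3.30 (SE 1.24, unadjusted p = 0.0263, adjusted p = 0.530, edgeR), followed by S100a8 with 3.22 (SE 1.17, unadjusted p = 0.0224, adjusted p = 0.530, edgeR) and S100a9 with 2.54 (SE 1.15). Mpo had 2.26 (SE 1.55), Prtn3 1.93, Ngp 1.69, Elane 1.20 and Ctsg 1.02 (SE 1.53). No member had all Mg-ALN gel libraries above all Gel libraries (background 9.76%), since Mg-ALN gel library 2 reached into or below the Gel range for every member. At an unadjusted p under 0.05 there were 2 members higher (background 5.43%) and 1439 genes (9.31%) in either direction. DESeq2 called 51 genes (0.332%) and no member, and limma-voom called 0 genes (0%). Without Mg-ALN gel library 1 the log2 fold change was 1.46 for S100a8 and 1.01 for S100a9. The median of the members was 2.09, against −0.032 over all genes. The 3 comparisons share libraries pairwise, so their values are not independent of each other.

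**Figure D3:**
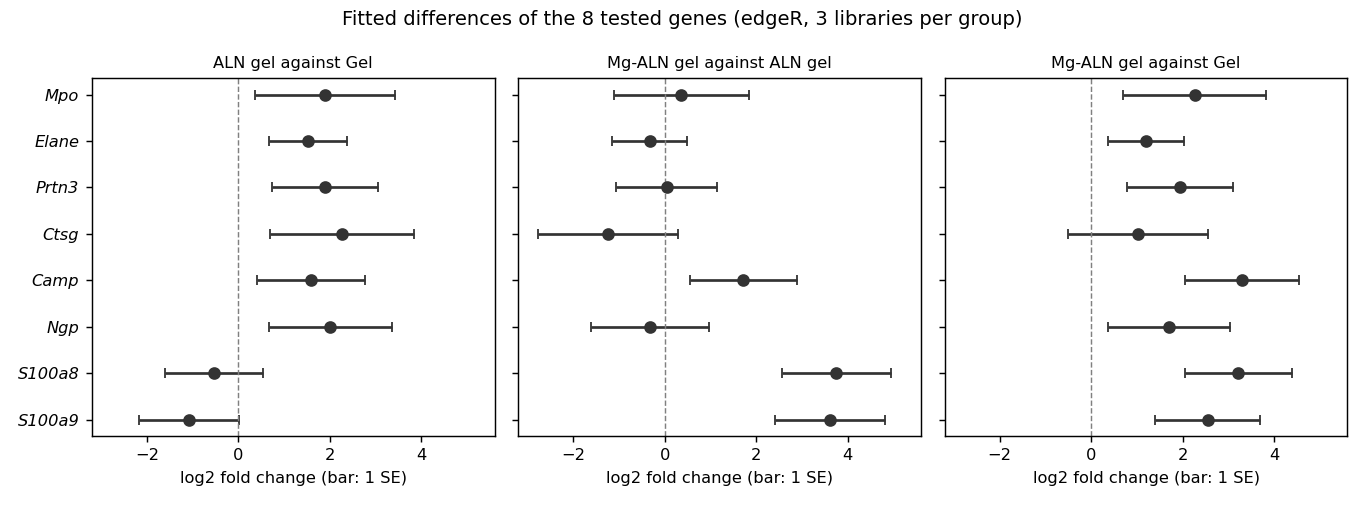
Fitted log2 fold change of the 8 tested genes in each comparison (points, bars 1 SE, edgeR fit over 9 libraries). The granule genes lie to the right of 0 against Gel, S100a8 and S100a9 lie near 3.7 for Mg-ALN gel against ALN gel, and no gene passed the adjusted threshold of 0.05.

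Asked jointly whether any group differed, edgeR called 0 of 8 members (background 0%, with 1436 genes, 9.29%, at an unadjusted p under 0.05). The lowest joint p-values among members were 0.0128 for S100a8 and 0.0233 for S100a9, with an adjusted p of 0.526 for both (edgeR). DESeq2 called S100a8 and S100a9 jointly, with an adjusted p of 0.0178 and 0.0499, among 1.64% of genes. limma-voom called 0.181% of genes and no member. In the exact permutation test over all divisions of the 9 libraries into 3 groups, p was 0.114 for S100a8, 0.150 for S100a9, 0.425 for Prtn3, 0.468 for Ctsg, 0.507 for Elane, 0.689 for Camp, 0.789 for Ngp, 0.793 for Mpo and 1 for Ltf. The smallest p this exact test allows is 0.00357. With each library left out in turn, the exact permutation p ran from 0.0357 to 0.825 for Camp and from 0.0429 to 0.343 for S100a8. Both were lowest without Mg-ALN gel library 2. These leave-outs of the exact test were chosen after seeing the data, and their p-values were not adjusted for the 9 members.

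The spread between libraries of 1 group was large for these genes. The standard deviation of log2 CPM within groups was 3.80 for Mpo, 3.40 for Ctsg, 2.94 for Ngp, 2.35 for Camp, 2.03 for Prtn3, 1.77 for S100a9, 1.73 for S100a8 and 1.38 for Elane. The median over all genes tested was 0.517. Mpo lay at the 99.8th percentile of all genes and Elane, the lowest of the 8, at the 84.8th. Of the 8 members, 5 were lowest in Mg-ALN gel library 2, and S100a8, S100a9 and Camp were highest in Mg-ALN gel library 1.

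Across the 9 libraries the members followed 2 patterns. Within the 6 granule genes, the 15 pairwise Pearson correlations of log2 CPM ran from 0.766 to 0.961 (Spearman 0.75 to 0.95), and S100a8 with S100a9 gave 0.989 (Spearman 0.95). The 10 pairs of a granule gene other than Camp with an S100 gene gave −0.032 to 0.344 (Spearman 0.05 to 0.233), and Camp gave 0.620 with S100a8 and 0.542 with S100a9. These are descriptions over 9 libraries that share the group structure. Computed on deviations from the group means, the 15 pairs gave 0.831 to 0.987 and the S100 pair 0.989, so each set also varied together inside groups. The 10 pairs between the sets then gave 0.277 to 0.691. The low values between the sets rested in part on single libraries: with the 2 libraries farthest from the median of the granule gene left out (Mg-ALN gel library 2 with Gel library 2, or with ALN gel library 1 for Elane), the 10 pairs gave 0.305 to 0.665. The 14 pairs of granule genes other than Camp with Ngp then gave 0.553 to 0.935. By the same rule the S100 pair, with Mg-ALN gel library 1 and the third ALN gel library left out, gave 0.980. Camp, without Mg-ALN gel libraries 1 and 3, gave 0.963 with Ngp, 0.00587 with S100a8 and −0.062 with S100a9. On deviations from the group means, with all libraries kept, Camp gave 0.694 with S100a8 and 0.618 with S100a9.

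**Figure D4:**
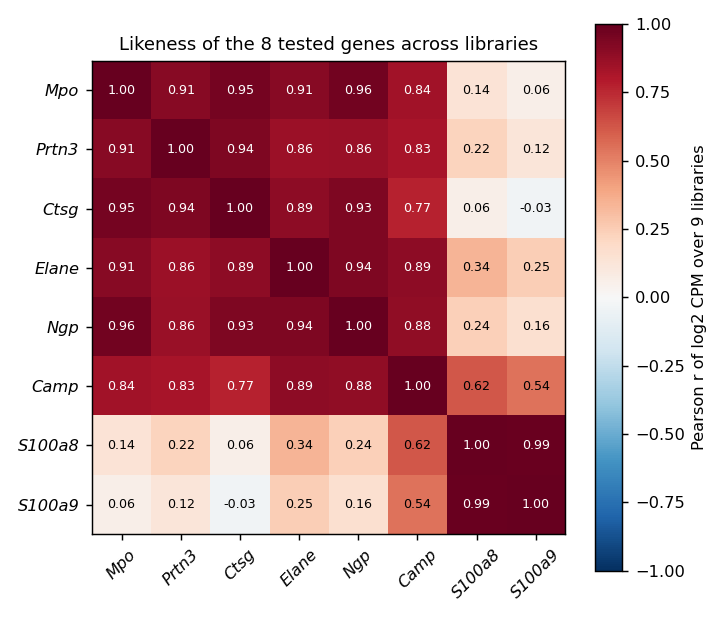
Pearson correlation of log2 CPM over the 9 libraries for each pair of the 8 tested genes. The 6 granule genes form 1 block (0.77 to 0.96), S100a8 and S100a9 another (0.99), and Camp lies between them.

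The protein-coding genes outside the members whose profile was most like each set were then ranked over the 13829 genes compared. For the azurophil genes they were Car1 (carbonic anhydrase 1 of red cells, r = 0.978), the defensin Defa5 (0.967), Ahsp (alpha-haemoglobin stabilising protein, 0.967), the neutrophil defensin Np4 (0.955), AABR07001512.1 (0.942) and Hemgn (hemogen, an erythroid nuclear protein, 0.940). For the specific granule genes they were the neutrophil defensin RatNP-3b (0.965), Serpinb10 (0.964), Defa5 (0.958), Np4 (0.946), the histone gene Hist3h2ba (0.940) and Ahsp (0.934). For calprotectin they were Padi4 (peptidylarginine deiminase 4, a neutrophil enzyme that citrullinates histones, 0.984), Cib1 (0.981), Snx11 (0.966), Gpsm3 (0.965), Arhgap9 (0.964) and Arrb2 (beta-arrestin 2, 0.962). Defensins and red cell genes were among those nearest to both granule sets, and the erythroid markers were lowest in the same libraries, Mg-ALN gel library 2 and Gel library 2. The 9 of 10 erythroid markers matched summed to 7539, 563 and 1056 CPM in Gel, 10586, 4584 and 1351 CPM in ALN gel, and 7442, 278 and 8239 CPM in Mg-ALN gel. Epb42 was the 1 marker at 0, in Gel library 2. B lineage markers (9 of 10 matched) were also lowest in Mg-ALN gel library 2, at 44.2 CPM with 5 of 9 at 0, and ran from 264 to 725 CPM in Gel, 276 to 1880 CPM in ALN gel and 44.2 to 541 CPM in Mg-ALN gel. Not all blood-forming markers were low in that library. The sum of the early blood progenitor genes was highest in Mg-ALN gel library 2, at 209 CPM, of which Cd34 gave 154 CPM. It was 103 to 170 CPM in the other libraries. Whether the amount of marrow in each sample has a part in the granule values was not tested.

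**Figure D5:**
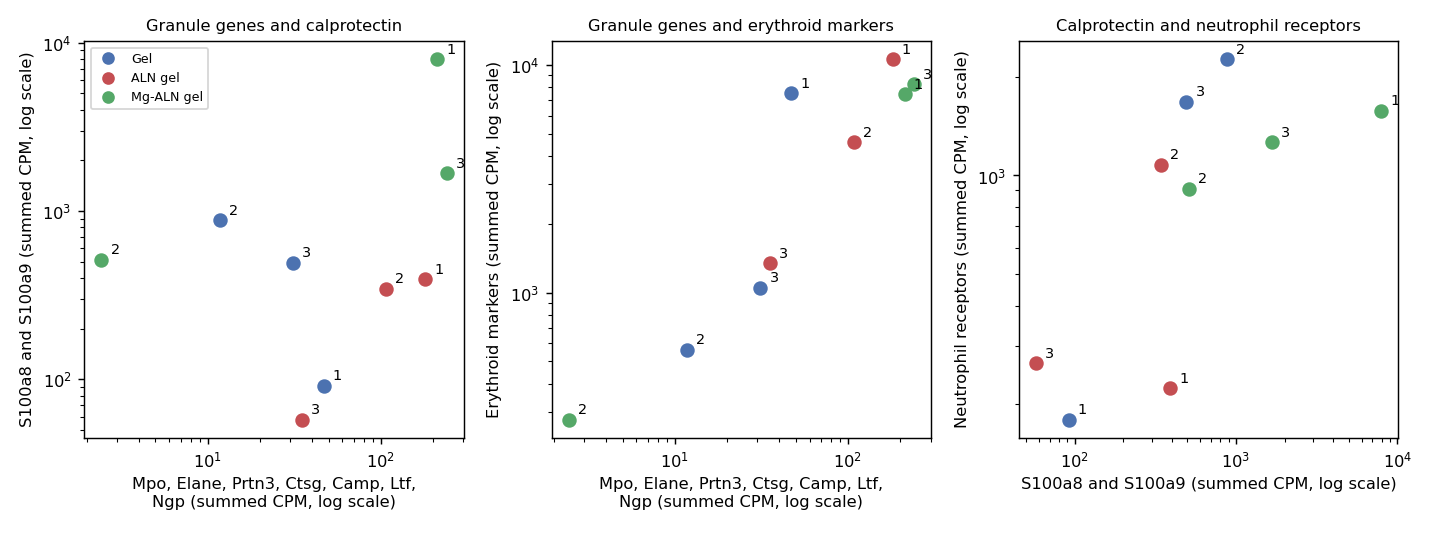
Summed CPM (log axes) per library: the 7 granule genes against calprotectin (left) and against erythroid markers (middle), and calprotectin against mature neutrophil receptors (right); numbers are library numbers. The granule sum follows the erythroid sum, lowest in Mg-ALN gel library 2, while calprotectin in that library is 513 CPM.

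Among other azurophil granule genes (9 of 10 matched, 8 tested), the defensins followed the members. RatNP-3b measured 16.6, 2.03 and 23.2 CPM in Gel, 57.0, 31.9 and 5.46 CPM in ALN gel, and 702, 0 and 731 CPM in Mg-ALN gel. Its log2 fold change for Mg-ALN gel against Gel was 5.10 (SE 2.06, unadjusted p = 0.0352) and was not called, and the 3 defensins have similar sequences, so reads could be split among them. Lyz2 (lysozyme, also made by macrophages) was instead highest in Mg-ALN gel library 1, as calprotectin was, at 22184 CPM against 655 to 8032 CPM elsewhere. By edgeR none of the 8 was called in any comparison. In ALN gel against Gel 5 of the 8 were positive and 3 negative. Gusb had 1.82 (SE 0.51, unadjusted p = 0.00582, edgeR) there, and Ctsc −1.47 (SE 0.63, unadjusted p = 0.0437, edgeR). In Mg-ALN gel against ALN gel Gusb had −1.68 (SE 0.51) and Ctsc 1.26 (SE 0.62). The median of the 8 was 0.60 for ALN gel against Gel, 1.14 for Mg-ALN gel against ALN gel and 0.86 for Mg-ALN gel against Gel.

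Other specific and gelatinase granule genes (14 of 16 matched, 13 tested) differed in sign from Camp and Ngp in ALN gel. Of the 13, 10 were negative in ALN gel against Gel (median −1.08) and 12 positive in Mg-ALN gel against ALN gel (median 1.88), with 0 called. Lcn2 (lipocalin 2, which binds bacterial siderophores) measured 42.7, 114 and 252 CPM in Gel, 47.0, 78.9 and 89.8 CPM in ALN gel, and 163, 376 and 256 CPM in Mg-ALN gel. Its log2 fold change for Mg-ALN gel against ALN gel was 1.88 (SE 0.60, unadjusted p = 0.0115). Mmp9 (gelatinase B, also abundant in osteoclasts) went the other way, with a log2 fold change of −1.91 in Mg-ALN gel against ALN gel, after 2.39 in ALN gel against Gel. Lcn2 did not share the low value of Camp and Ngp in Mg-ALN gel library 2, where it was highest.

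The mature neutrophil receptors (18 of 18 matched, 15 tested) were lowest in Gel library 1, ALN gel library 1 and ALN gel library 3, and calprotectin was lowest in the first and last of these. Their sum was 179, 2265 and 1680 CPM in Gel, 223, 1080 and 267 CPM in ALN gel, and 1578, 911 and 1266 CPM in Mg-ALN gel. Csf3r, the receptor for the neutrophil growth factor G-CSF, measured 3.20, 298 and 302 CPM in Gel, 3.49, 93.4 and 3.52 CPM in ALN gel, and 140, 166 and 169 CPM in Mg-ALN gel. Its level in Mg-ALN gel library 2 was thus close to those of the other Mg-ALN gel libraries, unlike the granule genes. Of the 15 receptors, 15 were negative in ALN gel against Gel (median −1.63) and 13 positive in Mg-ALN gel against ALN gel (median 1.30), with 0 called in either. Between 0 and 4 of the 18 were at 0 in a library, most often Fpr2, and Il1r2 was at 0 in Gel library 1.

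The chemoattractant gene Cxcl6 and the summed protease inhibitors were lowest in the same 3 libraries. The inhibitor sum was 163 CPM in Gel library 1, 92.3 in ALN gel library 1 and 103 in ALN gel library 3. Elsewhere it was 320 to 1319 CPM, and single inhibitors did not all share this order. Cxcl6, which attracts neutrophils, measured 0.355, 671 and 448 CPM in Gel, 0, 65.4 and 9.96 CPM in ALN gel, and 258, 353 and 421 CPM in Mg-ALN gel. Its Mg-ALN gel libraries were all above the ALN gel libraries, and it was not called. Of the neutrophil growth, retention and chemoattractant signals (10 of 10 matched, 9 tested), 6 were negative and 3 positive in ALN gel against Gel (median −2.19). In Mg-ALN gel against ALN gel 6 were positive and 3 negative (median 2.02), with 0 called in either. Cxcl12, the highest of that list by mean CPM, went the other way from Cxcl6, with 0.71 (SE 0.46) and then −1.61 (SE 0.47, unadjusted p = 0.00762, edgeR). The inhibitors of granule proteases (5 of 6 matched, 4 tested) had a median of −1.34 in ALN gel against Gel and 2.22 in Mg-ALN gel against ALN gel. Serpina3n measured 84.8, 302 and 444 CPM in Gel, 13.6, 30.7 and 49.2 CPM in ALN gel, and 228, 311 and 135 CPM in Mg-ALN gel. The ALN gel libraries lay below all others for this serpin, with a log2 fold change of −3.15 against Gel (SE 0.68, unadjusted p = 0.00118), and it was not called. Slpi, an inhibitor of elastase and cathepsin G, measured 23.5, 388 and 178 CPM in Gel, 29.8, 178 and 22.2 CPM in ALN gel, and 501, 241 and 368 CPM in Mg-ALN gel.

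Of 10 granulocyte transcription factors, 6 were negative in ALN gel against Gel, 6 were positive with Mg-ALN gel set against ALN gel, and 0 were called. Cebpd measured 97.3, 280 and 124 CPM in Gel, 39.5, 59.5 and 60.0 CPM in ALN gel, and 249, 152 and 143 CPM in Mg-ALN gel. This C/EBP factor was lower in every ALN gel library than in the other 6 (log2 fold change −1.65, SE 0.42, unadjusted p = 0.00356 against Gel), opposite in sign to Camp and Ngp. Cebpb, a C/EBP factor of emergency granulopoiesis, had −1.82 (SE 0.69) in the same comparison, and Spi1 (PU.1) 0.70 (SE 0.35). The C/EBP factor Cebpa had −0.70 (SE 0.39) there. The C/EBP factor Cebpe, named after its values were seen, had 0.76 (SE 0.67), the same sign as Camp and Ngp. Its level was low, at 1.35 to 11.1 CPM across libraries. Gfi1 and Myb, factors of early precursors named after their values were seen, were highest in Gel library 1 and ALN gel library 1. Gfi1 measured 8.82 and 10.2 CPM there against 0.238 to 3.23 CPM elsewhere, and Myb 24.8 and 12.9 CPM against 0 to 3.24 CPM.

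The subunits of the NADPH oxidase (5 of 6 matched), which supplies the peroxide that Mpo uses, had a median of −0.37 in ALN gel against Gel, 0.62 in the Mg-ALN gel comparison with ALN gel and 0.66 in that with Gel, with 0 called. Of other S100 genes and calprotectin receptors (7 of 9 matched), 6 were positive in Mg-ALN gel against Gel, with 0 called. S100a6 measured 106, 214 and 258 CPM in Gel, 115, 157 and 431 CPM in ALN gel, and 1938, 588 and 288 CPM in Mg-ALN gel, and shared its highest library with S100a8 and S100a9. Macrophage and monocyte markers (9 of 10 matched) varied less in sum than calprotectin. Their sum ran from 1230 to 2053 CPM in Gel, 1595 to 2297 CPM in ALN gel and 988 to 2464 CPM in Mg-ALN gel. It was highest in Mg-ALN gel library 1, as calprotectin was. Adgre1, C1qa, C1qb and C1qc were also highest there, at 394, 544, 283 and 330 CPM. Csf1r, Cd68, Mrc1 and Cd163 were highest in other libraries, and Marco was at 0 in every library. Early blood progenitor genes (8 of 9 matched, 6 tested) had medians of −0.23, −0.056 and −0.16 in the 3 comparisons, with 0 called.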

How the data were processed

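RNA-seq counts per gene, deposited by the authors as whole numbers without normalization, were used for levels and tests; FPKM values, deposited by the authors, were used only to compare genes per length. Each deposited FPKM equalled the count over gene length and 1 constant per library (0.804 to 1.19 times the column total). The submitters' processing notes list, without roles, edgeR 3.22.5, DESeq2 1.20.0, featureCounts 1.5.0-p3, HISAT2 2.0.5, StringTie 1.3.3b and fastp; the genome build is not given in the sources used here. Per the labels' protocols, mRNA was selected with poly-T beads, and no strand marking is mentioned.

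Groups came from the sample titles. Genes were filtered by filterByExpr (15460 of 35360 kept) and scaled by TMM, and all 9 libraries entered 1 edgeR 4.0.16 quasi-likelihood fit (R 4.3.3), with two-sided tests, Benjamini-Hochberg adjustment over all genes and a threshold of 0.05. SE is the log2 fold change over the square root of F. Log2 CPM used a prior count of 0.5. Alternatives were other size factors, no filter, DESeq2 1.42.0, limma 3.58.1 (voom with quality weights), only the groups compared, the replicate number as a block, the mitochondrial share as a covariate, and each library left out. Scripts were tested on simulated data with a smaller spread between libraries than these data have (common biological coefficient of variation 51.4%). That test therefore does not measure the power of the comparisons here. The closest libraries differed by a chi-square of 72.3 per degree of freedom, so all 9 were kept. Since the labels do not give separate animals, p-values measure no more than the spread of these samples, and it may be technical. Same-numbered libraries of Gel and ALN gel deviated together (r = 0.341, 0.419 and 0.226 across genes), a pattern from the data, not the labels. Differently numbered libraries of these 2 groups gave −0.283 to −0.012. Same-numbered pairs with Mg-ALN gel gave −0.199 to 0.130. A value of this size also arose between different numbers, 0.320 for Mg-ALN gel library 2 with ALN gel library 3.

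Members and gene lists (195 of 209 list entries matched) were chosen with earlier results of these data known. Genes named by rule were the members, the 4 highest by mean CPM of each pathway list and the 2 highest of each marker list. The 6 most like each set were also in the rule, and genes were named only where they bear on a result. Outside the rule, Cebpe, Gfi1, Myb, Epb42, Il1r2, Fpr2 and the macrophage markers other than Csf1r and Cd68 were named. Arhgap45 was named for its overlap with Elane and Prtn3. The deposited group means of FPKM were not used.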

Additional observations from a re-analysis of the deposited data

How the results depend on the processing

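No member passed the edgeR threshold under another normalization, no filter, the compared groups alone, the mitochondrial covariate, the replicate block or any library left out. DESeq2 called 135 genes for ALN gel against Gel, 178 for Mg-ALN gel against ALN gel, 51 for Mg-ALN gel against Gel and 242 jointly. Of the 8 members it called 2 for Mg-ALN gel against ALN gel and 2 jointly, S100a8 and S100a9 in each. limma-voom called 263, 2 and 0 genes and 28 jointly, without a member.

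Several differences of the granule genes between Mg-ALN gel and the other groups changed sign; those of Camp and Prtn3 against Gel stayed positive under every alternative run. With voom weights the members' median for Mg-ALN gel against ALN gel was −1.32, Mpo −3.59, Prtn3 −1.25 and Camp −0.68, and against Gel Mpo was −0.81, Elane −0.080, Ctsg −0.40 and Ngp −0.98. With the replicate number as a block, the median for Mg-ALN gel against ALN gel was −0.74, Mpo −1.03 and Prtn3 −0.94, and the block changed no call. The cause of these reversals was not tested. Leaving out 1 library at a time gave, for Mg-ALN gel against ALN gel, medians of −0.50 to 0.96, Mpo −0.95 to 1.21, Elane −1.004 to 0.30, Prtn3 −0.67 to 0.71 and Ngp −0.94 to 0.30; S100a8 for ALN gel against Gel ran from −1.01 to 0.11, the last without Gel library 2. It also gave 0 to 1 genes called for ALN gel against Gel and jointly (1 without ALN gel library 3), and 0 to 2 members with an exact permutation p under 0.05. The latter was chosen after seeing the data.

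S100a8 and S100a9 stayed positive in both comparisons of Mg-ALN gel under every alternative run, from 1.99 to 4.32 (S100a8) and 2.09 to 4.16 (S100a9) against ALN gel with 1 library left out. For ALN gel against Gel the 6 granule genes stayed positive, Mpo from 0.73 with the mitochondrial covariate to 2.89 with the replicate block. Depth limits Mpo, Prtn3, Ctsg and Ngp in Gel library 2 and Mg-ALN gel library 2, where they had 0 to 30 counts. It also limits Elane (14 counts) and Camp (20 counts) in Mg-ALN gel library 2.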
